A study of Mus musculus with 6 samples.

Results

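The genes described here encode the core relay of the Ras to Erk cascade: the small GTPases Mras, Nras and Hras, the Raf kinase Braf, the Mek kinases Map2k1 (Mek1) and Map2k2 (Mek2), and the Erk kinase Mapk3 (Erk1). They are 7 of the 55401 genes counted, taken by symbol from a fixed list, and other genes of these families are not described as members here. They were chosen by symbol with the fold changes between the miR-497 and NC groups known: Mras had been seen to be much higher and Map2k1 lower. For that reason the values of the members below are a description that no test on this contrast supports; how many passed the threshold of the whole table is given once, as a count from which nothing is read.

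The cells were ADC106, a mouse line from angiosarcoma, a malignant tumour of the cells that line vessels. One group of 3 libraries, with the genotype labelled WT, had been transfected with a negative-control microRNA mimic labelled NC. The other 3, labelled as miR-497 overexpression, had received a miR-497 mimic, a synthetic duplex that loads Argonaute with the microRNA. Both mimics were used at 12.5 nM, RNA was taken 3 days after transfection, and poly(A)-selected RNA was sequenced in bulk. Untransfected cells were not analysed here, each mimic was used at 1 dose and 1 time, and the work rests on 1 cell line.

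In this cascade, growth factor receptors recruit exchange factors that load Ras with GTP. Active Ras brings Raf to the membrane, Raf phosphorylates Mek, and Mek phosphorylates Erk, which acts on kinases and transcription factors. Mras is a Ras relative that, when bound to GTP, joins Shoc2 and the phosphatase subunit Ppp1c in a complex that removes an inhibitory phosphate from Raf. In endothelial cells the cascade is known for carrying signals from VEGF and FGF receptors to growth and migration. All of this works by phosphorylation, which RNA counts do not measure.

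The totals ranged from 25777676 to 36159499 counts per library. All 12 endothelial markers examined, among them Pecam1, Cdh5 and Kdr, were above 1 CPM (counts per 1000000 counts of a library, scaled by TMM) in the NC group, with a summed level of 9970 to 10700 CPM in NC and 9650 to 10100 CPM in miR-497 libraries; of the 12, 7 rose and 4 fell past the threshold used below. Leukocyte markers summed to 9.34 to 9.71 and 15.7 to 21.0 CPM, with Cd3e at 0 counts, and epithelial markers to at most 4.65 CPM. Fibroblast markers summed to 306 to 329 CPM in NC and 450 to 540 CPM in miR-497 libraries, with Lum at 0 counts. Of the 5 fibroblast markers tested, 2 rose and 2 fell past the same threshold, so the higher sum is not a shared rise. Mitochondrially encoded genes took 2.03% to 2.15% of the counts in NC and 2.94% to 3.77% in miR-497 libraries. The part of these differences in the results below was not tested. In bulk RNA, fewer cells of a type and less RNA per cell cannot be told apart. The labels do not say whether the 3 libraries of a group came from separate cultures, so the spread between them may be technical.

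The mature microRNA and the 7mer and 8mer matches to its seed in the 3′ UTRs of 6 members are shown. The seed match was not itself used to choose these genes, but it is not independent of the fold changes known at that choice. Over all tested genes, 40.9% with a match and 23.5% without one fell past the threshold used below. The RefSeq sequence of mmu-miR-497a-5p (GRCm38.p6, chr11:70234730-70234751, + strand) is given 5′ to 3′ with its seed, bases 2 to 8, in capitals. The other lines are transcript sequence on the gene's strand from the GENCODE M21 models of GRCm38, with the bases that match in capitals.
mmu-miR-497a-5p: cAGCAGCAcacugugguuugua
Mras: actcctccctctctggTGCTGCTAgtgg
Map2k1: catggaaagcatgcttTGCTGCTActga
Nras: tggaggagacctgttccTGCTGCTctct
Hras: agacatgatgtagagccTGCTGCTgagt
Braf: gcatgatggaaagaattTGCTGCTgcag
Mapk3, upstream match: gccccagagctgatctcTGCTGCTgtgt
Mapk3, downstream match: gccacatgtaacgccctTGCTGCTtctg

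An 8mer match (TGCTGCTA) was held by 2 members, Mras and Map2k1. The Mras match lies in the 28 bases shown, chr9:99387167-99387194 on the - strand, and starts 1227 bases into a 3′ UTR of 2985 bases. The Map2k1 match lies in the 28 bases shown, chr9:64186227-64186254 on the - strand, and starts 447 bases into a 3′ UTR of 915 bases. The remaining 5 members had a match of the 7mer-m8 kind (TGCTGCT with no A after it) in their longest annotated 3′ UTR. Nras, Hras, Braf and Map2k2 had 1 each, and Mapk3 had 2, at 244 and 494 bases into a 3′ UTR of 612 bases. No member had a 7mer-A1 match (GCTGCTA without the preceding T), and no 7mer or 8mer was found in any member's longest coding sequence. These words were searched on the transcript strand only, and each 8mer contains the 7mer.

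Among 12859 tested genes with an annotated 3′ UTR, 28.1% had at least 1 such 7mer or 8mer and 4.61% had an 8mer. The members' 3′ UTRs ran from 612 to 7145 bases, against a median of 1187 bases over those genes, and longer UTRs hold any 7-letter word more often. For several members the match depended on the transcript model. Mras held its 8mer in the transcript Mras-201 alone, and the shorter 3′ UTRs of 477 and 426 bases had none. The Map2k2 match, not shown above, came from a model with 193 coding bases, while the models with 1203 and 1200 coding bases had no 7mer. With the shortest annotated 3′ UTR of each gene, 3 members (Nras, Braf and Map2k1) kept a match. The counts are per gene and do not show which 3′ UTR the cells used. A match describes letters and does not show that the microRNA acted there.

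Mras (ENSMUSG00000032470; chr9:99385420-99437381, - strand) was the least abundant Ras gene among the members. NC libraries 1 to 3 had 2.59, 2.19 and 2.45 CPM, and miR-497 libraries 1 to 3 had 14.5, 13.6 and 14.1 CPM. Every miR-497 library was more than 5 times as high as the highest NC library, and the groups did not overlap. The values rest on 69 to 86 counts per NC library and 364 to 432 per miR-497 library. The fold change was 5.83 (log2 2.54, SE 0.143). The 593 tested genes with an 8mer had a median log2 fold change of -0.28, and 76 of them rose and 296 fell past the threshold. Of all 14661 tested genes, 3490 (23.8%) rose and 3817 (26.0%) fell. Whether the match had a part in the level of Mras was not tested.

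Nras (ENSMUSG00000027852; chr3:103058285-103067914, + strand), a classical membrane-bound Ras, was lower in the miR-497 group. Its NC libraries stood at 153.6, 149.3 and 155.6 CPM and its miR-497 libraries at 126.3, 119.8 and 111.5 CPM. The groups did not overlap, and the log2 fold change was -0.36 (SE 0.0553). Hras (ENSMUSG00000025499; chr7:141189105-141194005, - strand), another classical Ras, had 56.6, 58.0 and 57.8 CPM with NC and 66.6, 54.4 and 57.5 CPM with miR-497. Here the groups overlapped: miR-497 library 1 was above all NC libraries and library 2 below them. The log2 fold change of 0.05 (SE 0.0743) was smaller than its standard error, and it changed sign to -0.04 without miR-497 library 1.

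Braf (ENSMUSG00000002413; chr6:39603237-39725463, - strand), the Raf kinase that phosphorylates Mek most actively, had 51.3, 45.9 and 49.7 CPM in NC libraries. In miR-497 libraries it had 44.3, 45.7 and 43.6 CPM. The highest miR-497 library lay just under the lowest NC library, and the log2 fold change was -0.14 (SE 0.0688).

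The Mek genes, whose products are the direct activators of Erk, differed from each other. Map2k1 (ENSMUSG00000004936; chr9:64185770-64253631, - strand) had 162.2, 164.0 and 162.8 CPM with NC and 110.9, 113.9 and 110.9 CPM with miR-497. Replicates of a group lay close together, and the groups were far apart. The log2 fold change was -0.54 (SE 0.0489), so that the NC level was 1.46 times the miR-497 level. Map2k2 (ENSMUSG00000035027; chr10:81105915-81133975, + strand) had 104.8, 114.0 and 103.7 CPM in NC and 101.9, 95.1 and 97.9 CPM in miR-497 libraries. Its groups did not overlap but nearly touched, and the log2 fold change was -0.13 (SE 0.0571). Per kilobase of exon, Map2k1 exceeded Map2k2 by a factor of 2.59, 2.40 and 2.62 in the NC libraries. The factors for miR-497 were 1.82, 2.00 and 1.89.

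Mapk3 (ENSMUSG00000063065; chr7:126759601-126765819, + strand), the Erk1 kinase at the end of the relay, was the member with the most negative fold change. Its NC libraries had 132.9, 133.0 and 136.6 CPM and its miR-497 libraries 51.9, 54.1 and 46.2 CPM. All 3 miR-497 libraries lay far under all 3 NC libraries. The NC level was 2.65 times the miR-497 level (log2 fold change -1.40, SE 0.0636).

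**Figure D1:**
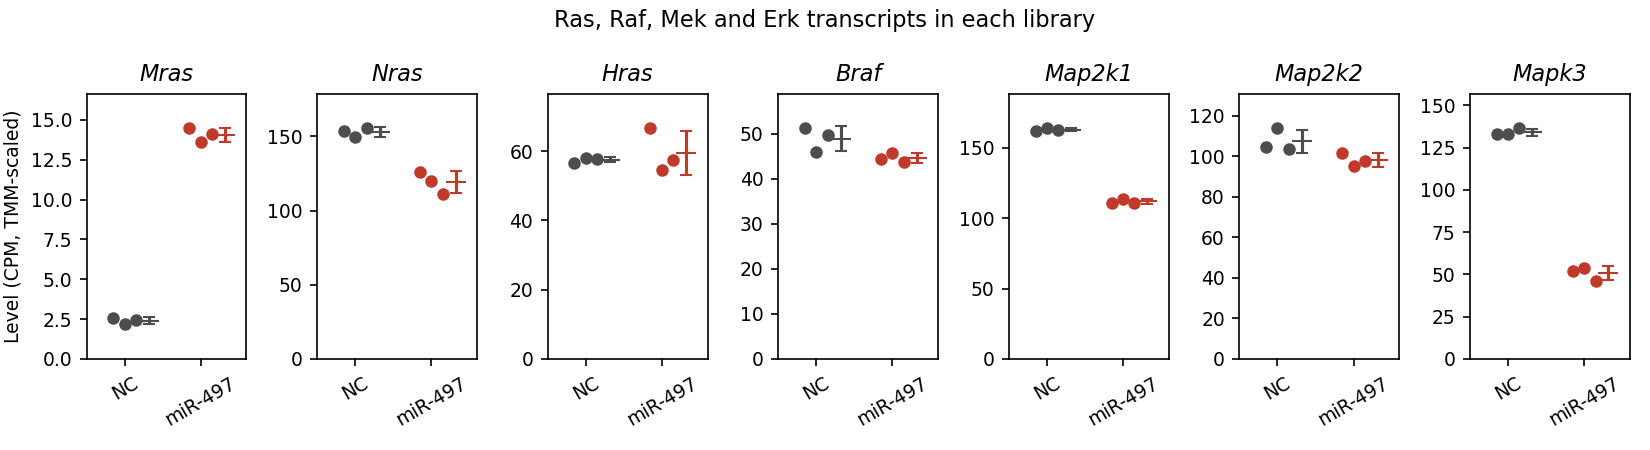
Level of each member in each library, in CPM scaled by TMM (vertical axis, from 0, a separate scale for each gene), with NC in grey and miR-497 in red. Points are libraries 1 to 3 and bars give the mean ± SD (n = 3): Mras goes from 2.41 to 14.1 CPM and Mapk3 from 134.2 to 50.7 CPM, while the Hras groups overlap.

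Over all members, 4 of 7 had an adjusted p under 0.05 in edgeR's quasi-likelihood test over 14661 genes, where 49.8% of all tested genes did. The groups did not overlap for 6 of 7 members and for 57.4% of all tested genes. Since the members were picked with this contrast known, nothing is read from these counts. All 7 passed the filter on low counts, the lowest being 69 counts for Mras in NC library 3.

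Reads that could belong to a relative were few. Of all 50-base words in the Map2k1 models, 0.207% also occur in Map2k2, and of those in Map2k2, 0.122% occur in Map2k1. Mras and Hras shared none with any other gene model, and Nras shared 0.733%. Opposite-strand exons, of Ndufb2, covered 1.05% of the Braf exon bases and none of the other members' exons.

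To compare the genes with each other, levels were divided by the length of the merged exons. In NC cells the order, in CPM per kilobase (mean ± SD, n = 3), was Mapk3 at 59.4 ± 0.951, Map2k1 at 48.1 ± 0.283, Nras at 28.7 ± 0.599, Map2k2 at 18.98 ± 0.998, Hras at 15.4 ± 0.206, Braf at 3.53 ± 0.197 and Mras at 0.470 ± 0.0398. No neighbours in this order overlapped between libraries. This order, and the one below for miR-497 cells, hold for the merged exon length only. Map2k2 has 5663 bases of merged exons but 2405 in its longest transcript, and Braf has 13862 and 9728. With the longest transcript, genes such as Map2k2 would stand higher relative to the others. In miR-497 cells Map2k1 came first, at 33.0 ± 0.519 CPM per kilobase. Mapk3 (22.5 ± 1.80) and Nras (22.4 ± 1.39) followed and could not be ordered, since their libraries overlapped, as did those of Map2k2 (17.4 ± 0.600) and Hras (15.9 ± 1.70). Mras, at 2.74 ± 0.0866, remained last, and by this length was now close under Braf at 3.21 ± 0.0775 but without overlap. How close they lie depends on the length used.

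**Figure D2:**
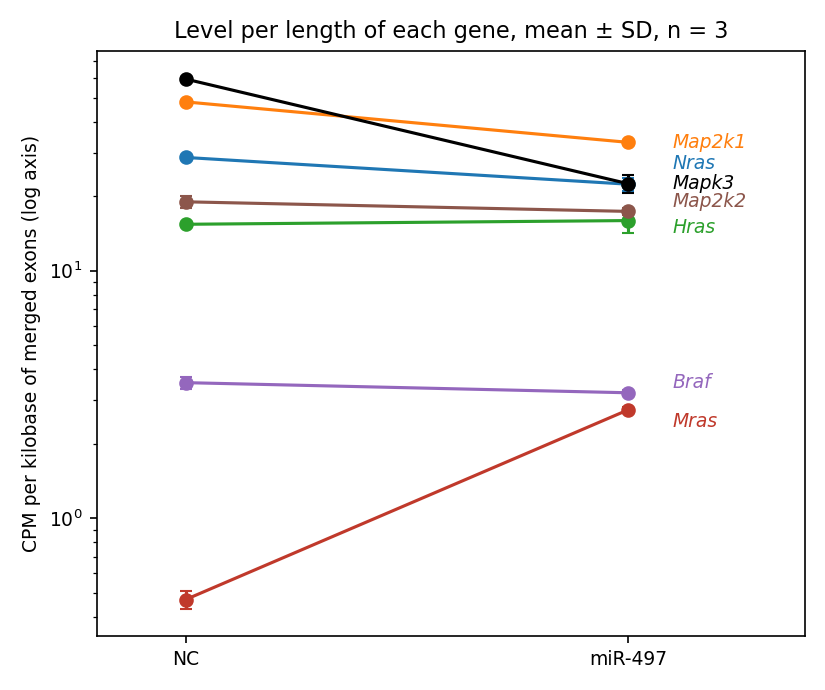
Level of each member in CPM per kilobase of merged exons (vertical log axis) in the NC and miR-497 groups, as mean ± SD of 3 libraries, with lines joining the same gene. The line of Mapk3 crosses that of Map2k1 between 59.4 and 22.5, and the line of Mras climbs from 0.470 to 2.74, just under Braf at this length. The order of the genes depends on the length used.

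Within the 3 Ras genes the make-up differed between the groups, while their sum overlapped. Mras made up 1.14%, 0.970% and 1.06% of the summed level per kilobase with NC and 6.36%, 6.67% and 7.03% with miR-497. Nras made up 64.4% ± 0.586 in NC and 54.5% ± 1.82 in miR-497 libraries (SD, n = 3). Hras stood at 34.6% ± 0.663 and 38.8% ± 1.85 of the sum. Nras transcripts were 61.3 ± 4.32 times as abundant as Mras transcripts in NC and 8.16 ± 0.479 times in miR-497 libraries, so Mras stayed the minor species. The sum of the 3 genes was 44.5 ± 0.591 and 41.0 ± 2.88 CPM per kilobase, with overlapping groups. For the Mek genes the sum was 67.0 ± 1.26 CPM per kilobase in NC and 50.4 ± 0.346 in miR-497 libraries, with no overlap. These shares depend on the length used. With the length of the longest transcript in place of merged exons, the Map2k1 to Map2k2 ratio was 1.499 in NC and 1.125 in miR-497 cells, against 2.54 and 1.90, and the direction was the same.

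**Figure D3:**
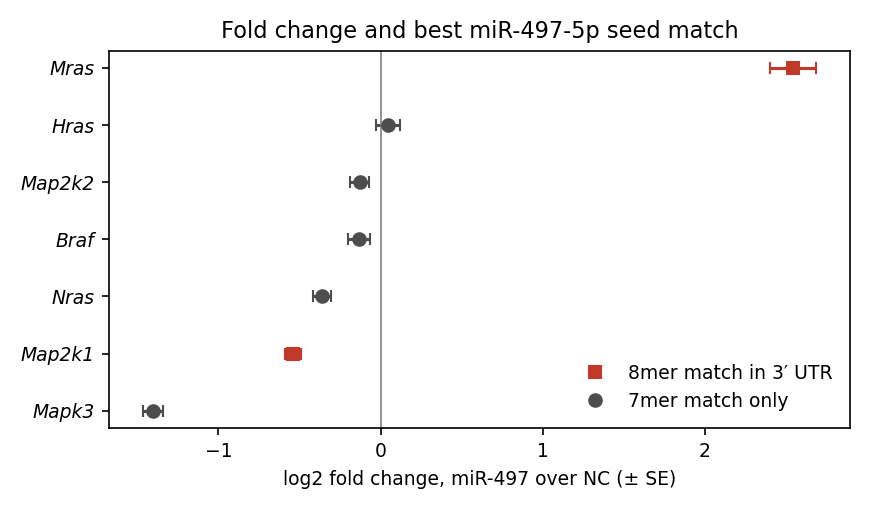
Log2 fold change of each member, miR-497 over NC (horizontal axis, ± SE), ordered by value. Red squares mark genes with an 8mer match to the miR-497-5p seed in the longest 3′ UTR and grey circles those with a 7mer match only; the 2 squares, Mras at 2.54 and Map2k1 at -0.54, lie on opposite sides of 0.

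The genes whose pattern over the 6 libraries was most like that of Mras, out of 9953 named protein-coding genes, were Cryab, Cd24a and Cemip. Likeness was the root mean square difference of log2 CPM after each gene was centred on its own mean. It was 0.0994 for Cryab, a small heat shock protein, 0.152 for Cd24a, a surface glycoprotein, and 0.160 for Cemip, which takes part in hyaluronan breakdown. With 2 groups of libraries the measure is set mostly by the fold change between them, and so finds genes of similar fold change. The log2 fold changes were 2.40 for Cryab, 2.34 for Cd24a and 2.78 for Cemip. No gene besides Cryab lay within 0.1 of Mras. For Map2k1 the nearest were Gfod1 (0.0223), Arl8a (0.0237), a lysosomal small GTPase, and Zcchc2 (0.0245), and 750 genes lay within 0.1. The 2 counts are not comparable, since the pooled replicate SD of log2 CPM was 0.0912 for Mras and 0.0171 for Map2k1 and both genes were chosen for their fold changes.

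The genes around the relay were taken as 6 lists covering 95 genes, of which 94 were found in the table by symbol and 86 passed the filter on low counts. The lists, like the members, were chosen with earlier results of these data known. Their shares, medians and p-values below are therefore a description and not a test of the pathway. Of these 86, 20 rose and 41 fell in the miR-497 group past the threshold of 0.05 (adjusted p of edgeR's quasi-likelihood test, over all genes), that is 23.3% and 47.7%. Over all 14661 tested genes 23.8% rose and 26.0% fell. These shares over all genes are the background for the counts of each list below. The median log2 fold change was -0.19 for the lists and -0.02 for all genes. Called changes of at least 2-fold upward were found for 4 pathway genes (3.63% of all tested genes) and downward for 3 (5.19% of all tested genes). Of the 25 pathway genes with a 7mer or 8mer in the longest 3′ UTR, 14 fell and 6 rose, and of the 61 without, 27 fell and 14 rose. For all tested genes the shares that fell were 40.9% with and 23.5% without a match.

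Exchange factors and adaptors, which turn receptor signals into active Ras, moved in both directions: of 11 tested, 3 rose and 3 fell. Gab1, a docking protein for Ptpn11 and PI3 kinase, rose from 30.8 ± 2.66 to 67.9 ± 3.19 CPM (mean ± SD of 3 libraries, as below; log2 fold change 1.14, edgeR adjusted p = 2.5e-09). Its relative Gab2 rose by 0.56 and the exchange factor Rasgrp3 by 0.33 on the log2 scale. Ptpn11, the Shp2 phosphatase needed for full Ras activation, fell from 171 ± 13.8 to 131 ± 8.11 CPM (log2 fold change -0.38, edgeR adjusted p = 9.2e-05). Sos1, the main exchange factor for growth factor receptors, had a log2 fold change of -0.02 (SE 0.0792) and did not pass. Sos2 fell by 0.20 on the log2 scale. It lost its call without NC library 2 or 3 or miR-497 library 1 or 3, at edgeR adjusted p-values from 0.053 to 0.14.

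Among the genes that switch Ras off, 4 of 12 tested rose and 4 fell. The GTPase-activating proteins Rasa3 (176 ± 4.13 to 261 ± 4.24 CPM, log2 fold change 0.57) and Dab2ip (0.41) rose, while their relative Rasa2 fell by 0.63 on the log2 scale. Spred1, which brings neurofibromin to the membrane, stood at 172 ± 4.64 CPM in NC and 124 ± 9.46 CPM in miR-497 cells, a log2 fold change of -0.47. Their edgeR adjusted p-values ran from 7.1e-08 to 4.6e-06. Nf1, which encodes neurofibromin itself, fell by 0.35 on the log2 scale (edgeR adjusted p = 0.00044).

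Ras reaches membranes after prenylation, trimming and methylation of its tail, and for some Ras proteins palmitoylation and escort, and 6 of the 12 genes listed for all these steps fell while 3 rose. The protease Rce1 (23.1 ± 0.673 to 12.5 ± 0.768 CPM) and the methyltransferase Icmt (122 ± 6.36 to 68.1 ± 3.995 CPM), which act one after the other on the prenylated tail, had log2 fold changes of -0.88 and -0.84. Icmt had 5 seed matches of 7 or 8 bases in its longest 3′ UTR, and Rce1 had 0. Golga7, the partner of the Ras palmitoyltransferase Zdhhc9, rose from 71.7 ± 0.132 to 144.7 ± 0.870 CPM (log2 fold change 1.01, edgeR adjusted p = 1e-10). Zdhhc9 itself fell (log2 fold change -0.31, edgeR adjusted p = 0.00033). Abhd17c, a depalmitoylating enzyme, rose by 0.85 on the log2 scale.

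In the list of the Shoc2 complex, scaffolds and Raf regulators, 5 of 14 tested genes fell and 1 rose. Shoc2, the scaffold that Mras binds, fell from 101 ± 4.74 to 58.5 ± 5.73 CPM (log2 fold change -0.79, SE 0.0709, edgeR adjusted p = 9.6e-08), so the level of this partner was lower where that of Mras was higher. The catalytic subunits of the same complex did not pass: the log2 fold changes were -0.12 for Ppp1cb, 0.02 for Ppp1cc and -0.0018 for Ppp1ca. Rras2, a Ras relative, fell by 0.89, Pebp1, which binds Raf and limits its access to Mek, by 0.67, and the Raf kinase Araf by 0.32 on the log2 scale. The single gene that rose, the scaffold Ksr1, had a log2 fold change of 0.19 and lost its call without NC library 2 (edgeR adjusted p = 0.16) or miR-497 library 3 (edgeR adjusted p = 0.068). Of the 5 that fell, Lamtor2 (log2 fold change -0.18) lost its call without NC library 2 (edgeR adjusted p = 0.13) or miR-497 library 2 (edgeR adjusted p = 0.19), among others.

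Phosphatases and Sprouty proteins, which damp the cascade and some of which are themselves made in response to Erk, fell in 9 of 13 tested cases and rose in 3. Spry2 fell from 43.8 ± 3.42 CPM with NC to 20.1 ± 1.34 CPM (log2 fold change -1.13, edgeR adjusted p = 7.4e-09). Spry4 fell by 0.91 and Spry1 by 0.87 on the log2 scale, and the Erk phosphatase Dusp7 by 0.77. Opposite-strand exons cover 24.4% of the Spry1 exon bases, and strand use in counting was not given. The genes that rose were Dusp4 (log2 fold change 0.67), a nuclear phosphatase of Erk, Il17rd (1.41) and Ptprr (0.98). These 3 were named after their values were seen. Il17rd and Ptprr were low, with 56 to 66 and 28 to 52 counts per NC library. Both averaged under the log2 CPM of 2 used to choose genes to name. Ptprr lost its call without miR-497 library 3 (edgeR adjusted p = 0.087). Among those that fell, Dusp9 (log2 fold change -0.21) lost its call without NC library 1, 2 or 3 or miR-497 library 2. The edgeR adjusted p-values were 0.061 to 0.16. Dusp9 also lost it with DESeq2 size factors, the DESeq2 Wald test, upper-quartile scaling and no filter. The number that fell in this list was 8 or 9 without any 1 library. Dusp6, the cytoplasmic Erk phosphatase often read as a gauge of Erk activity, had a log2 fold change of -0.11 (SE 0.0489) and did not pass.

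Of the 24 genes listed as Erk-activated kinases and Erk-induced genes, 14 fell and 6 rose. The list also holds transcription factors that Erk acts on (Elk1, Elk3 and Elk4). The immediate-early transcription factor Egr1 fell from 54.9 ± 1.88 CPM with NC to 16.9 ± 1.03 CPM (log2 fold change -1.69, edgeR adjusted p = 2.1e-11). Fos fell from 5.90 ± 1.93 CPM with NC to 2.07 ± 0.217 CPM (log2 fold change -1.51, edgeR adjusted p = 8.8e-05), and Fosl1, another AP-1 subunit, fell by 0.74 on the log2 scale. Opposite-strand exons cover 57.2% of the Fosl1 exon bases, so its value is uncertain if strand was not used. Mknk1, a kinase that phosphorylates the translation factor eIF4E, fell by 0.73. The transcription factors Etv4 and Etv5, both induced by Erk in many cells, went in different directions, with log2 fold changes of -0.50 and 0.19. The call of Etv5 was lost without NC library 1 or 2 or miR-497 library 1 or 2, at edgeR adjusted p-values from 0.065 to 0.12. Calls of genes that fell were lost too. Egr2 (log2 fold change -0.96), with 14 to 57 counts per library, lost its call without NC library 1, 2 or 3 or miR-497 library 2 or 3. The edgeR adjusted p-values were 0.06 to 0.18. Etv1 (-0.21) lost its call without NC library 3 or miR-497 library 2 or 3, at edgeR adjusted p-values from 0.058 to 0.11. The number that rose was 3 in place of 6 without NC library 1, without NC library 2 or without miR-497 library 1, while the number that fell was 12 or 13 without any 1 library.

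**Figure D4:**
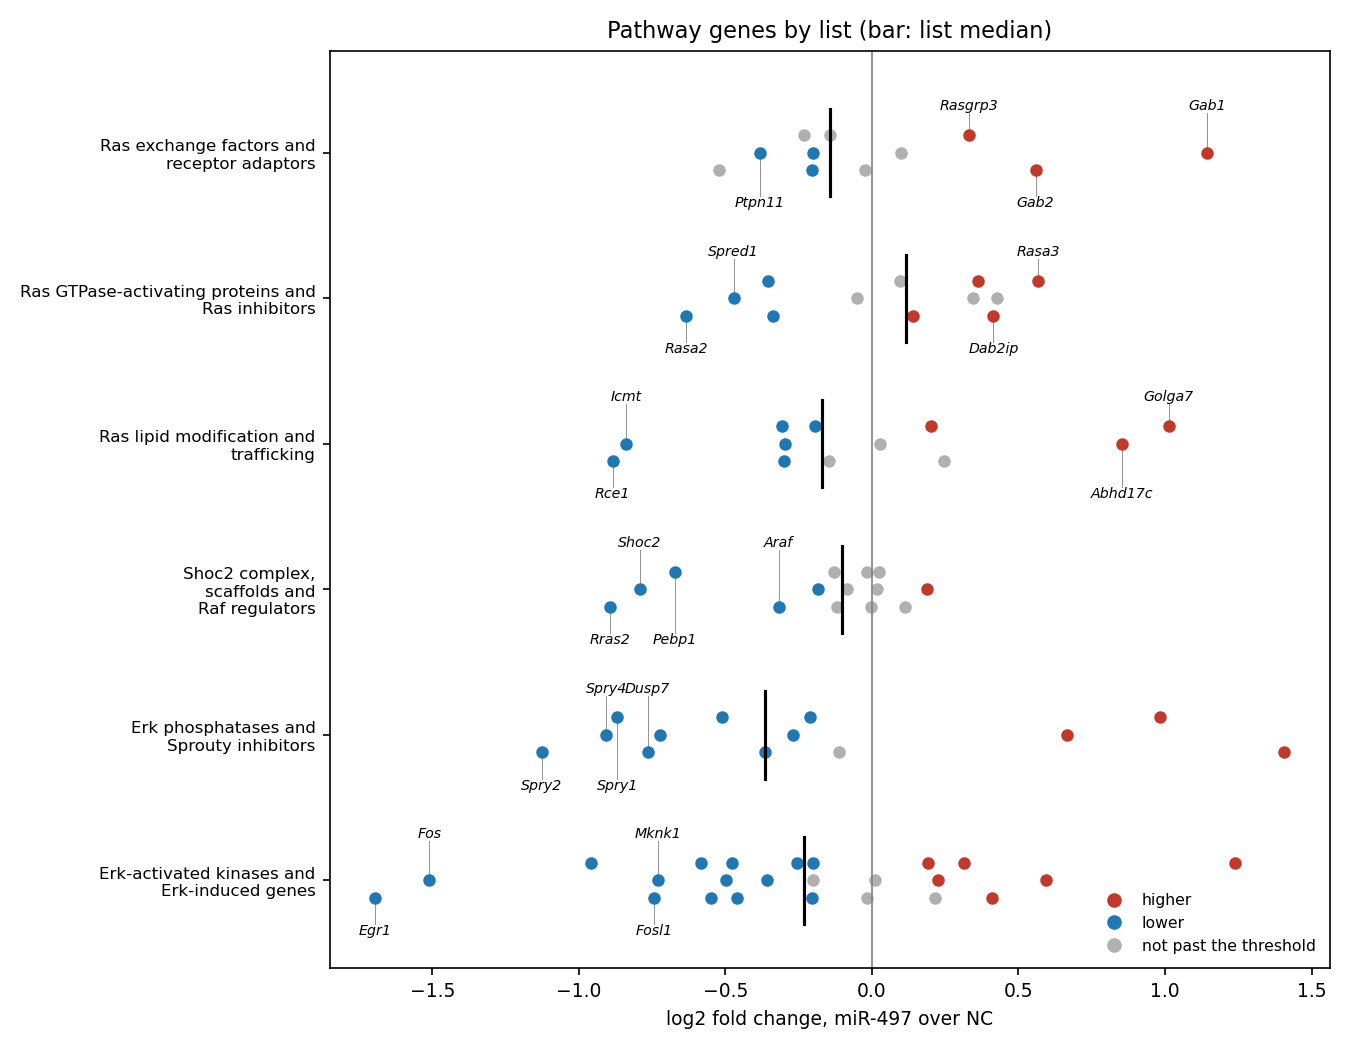
Log2 fold change, miR-497 over NC (horizontal axis), of the 86 tested pathway genes, 1 point per gene, in 6 lists; red and blue points passed an adjusted p of 0.05 in edgeR's test and grey points did not, and black bars are list medians. The bar lies furthest below 0 for the phosphatases and Sprouty inhibitors, where 9 of 13 points are blue, and above 0 for the Ras GTPase-activating proteins.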

How the data were processed

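The deposited table holds raw counts of reads per Ensembl gene, not normalized by the authors, as the whole numbers in it show. The submitters' processing notes name the build GRCm38 and STAR 2.5.4b, featureCounts, Subread 1.6.1 and edgeR 3.32.1; strand setting, annotation release and treatment of multiply aligned reads are not given in the sources used here. Columns were tied to the 6 libraries by the sample descriptions, and groups came from the titles. Symbols, exon lengths and 3′ UTRs came from GENCODE M21 (GRCm38), which matched 55141 of 55401 identifiers. Opposite-strand overlap was computed from the same models.

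Genes were filtered with filterByExpr (minimum count 10, minimum total 15), scaled by TMM and tested over the whole table with edgeR 4.0.16 in R 4.3.3 (quasi-likelihood F-test, group only, 2-sided, Benjamini-Hochberg, threshold 0.05). SE is the log2 fold change divided by the square root of F. Levels in the likeness measure used log2 CPM with a prior count of 2. The method was also run on simulated counts in which few genes changed, equally up and down, with the same dispersion for every gene. Those runs do not check scaling or error where 49.8% of genes are called, and nothing is concluded from them.

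The members and lists were chosen with earlier results of these data known. Genes named were the members, the 4 largest called changes per list with non-overlapping groups and a log2 CPM averaging 2 or more, and the 3 nearest in pattern to Mras and Map2k1. Others named (Sos1, Sos2, Nf1, Zdhhc9, the Ppp1c genes, Ksr1, Lamtor2, Dusp4, Dusp6, Dusp9, Il17rd, Ptprr, Egr2, Etv1, Etv4 and Etv5) were added after their values were seen. Alternatives were DESeq2 1.42.0 size factors and Wald test, upper-quartile scaling, no filter, a mean count of at least 50, limma 3.58.1 voom, the replicate number as a block, and each library left out.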

Additional observations from a re-analysis of the deposited data

How the results depend on the processing

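None of the 13 alternatives moved the counts of all genes or of all pathway genes that rose or fell by more than 1.5 times. The balance of all genes did depend on the scaling. With upper-quartile scaling 3998 genes rose and 3422 fell, against 3490 and 3817 in the main fit, and 22 pathway genes rose and 34 fell. Without single libraries, pathway genes that rose numbered 16 to 19 and those that fell 35 to 38. The Shoc2 list had 0 to 1 gene that rose and the list of Erk-activated kinases and Erk-induced genes 3 to 6. All 312 pairs of the 24 pathway genes chosen by rule and an alternative kept direction and call. Map2k1 moved by more than its small replicate spread with upper-quartile scaling, to -0.496 from -0.54. With the length of the longest transcript the Mras share was 0.932% in NC and 5.91% in miR-497 libraries, and the Map2k1 to Map2k2 ratio 1.499 and 1.125. With the shortest 3′ UTR, 3 of 7 members had a match, since the shorter models of the others lack it. The median of all genes moved by less than 0.05 on the log2 scale under these settings.

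Libraries with equal replicate numbers did not deviate together (correlations of -0.119, -0.0351 and -0.133). With 3 libraries per group this cannot show whether the libraries were paired, and the labels do not say. With the replicate block, 18 pathway genes rose and 36 fell, 3177 and 3563 of all genes did, and Map2k1 stood at -0.54 and Mapk3 at -1.41. Of the pathway genes named, Etv5 lost its call with the block (edgeR adjusted p = 0.062). So did Sos2, Lamtor2, Dusp9, Egr2 and Etv1, which had fallen, at edgeR adjusted p-values from 0.052 to 0.074. Among the members, low depth limits Mras most, at 69 counts in its lowest library.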
